A study of Drosophila melanogaster with 2 samples.

Results

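Of the 30000 peaks of Su(var)2-HP2-GFP in the pooled list, 3014 lay on the X chromosome arm, and 222 of these were also in the shorter list made by irreproducible discovery rate (IDR), which holds 6.69% of the pooled peaks. The X arm was defined by position alone, as summits from position 500000 to 20000000 of X in the dm6 build of Drosophila melanogaster. The telomere-proximal end and the part towards the centromere were thus left out. The material was whole embryos aged 0 to 10 h of a line that stably expresses Su(var)2-HP2 with GFP fused to its C terminus. Chromatin sonicated to 200 to 800 bp was precipitated with an antibody against GFP, in 2 biological replicates numbered 4 and 6, and all samples form 1 group. The sex of the embryos was not recorded and the cell types were mixed, so the values are averages over tissues and over embryos of unknown sex. A lower dose of X DNA and weaker binding per X chromosome cannot be told apart in these values. The X arm was compared with the arms 2L, 2R, 3L and 3R, without their telomere-proximal 0.5 Mb, their pericentromeric parts and the 2 Mb next to these. These autosomal arms held 10745 pooled peaks and 1057 IDR peaks.

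Su(var)2-HP2 binds HP1, the protein that reads methylated histone H3 in silent chromatin, and is best known from pericentromeric DNA, where its mutations relieve silencing. On chromosome arms, HP1 and its partners are also found at a subset of active genes. The X of the fly carries a further chromatin system: in males the MSL complex, with the noncoding RNAs roX1 and roX2, acetylates histone H4 and raises transcription of X genes, starting from entry sites rich in GA repeats.

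Runs of A and T were common in the DNA at strong X arm summits, and at strong autosomal ones too. Sequences at 7 summits are shown because the base composition described below can be read from them. Each is the plus strand of dm6, read from RefSeq's copy of these chromosomes, over 121 bases centred on the summit. Capitals mark runs of 6 or more A or T. The first 4 lie within 500 bp of a start site, at the genes named, in chrX:15890193-15890313, chrX:16361434-16361554, chrX:2137254-2137374 and chrX:15887330-15887450. The last 3 lie away from start sites, in introns of CG32772 and Tlk and in an exon of the noncoding RNA gene lncRNA:Vinr, in chrX:4910331-4910451, chrX:3742127-3742247 and chrX:12751073-12751193.
MSBP: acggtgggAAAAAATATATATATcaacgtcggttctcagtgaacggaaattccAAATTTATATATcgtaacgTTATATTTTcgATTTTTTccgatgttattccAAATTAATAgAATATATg
nonA: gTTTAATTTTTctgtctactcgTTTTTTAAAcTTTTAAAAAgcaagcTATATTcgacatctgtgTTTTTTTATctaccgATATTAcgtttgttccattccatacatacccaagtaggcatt
ph-p: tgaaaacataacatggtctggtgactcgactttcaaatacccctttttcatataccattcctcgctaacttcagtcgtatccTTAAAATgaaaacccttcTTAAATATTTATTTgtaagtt
tay: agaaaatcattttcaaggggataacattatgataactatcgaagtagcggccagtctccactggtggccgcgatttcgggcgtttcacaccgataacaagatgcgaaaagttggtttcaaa
CG32772: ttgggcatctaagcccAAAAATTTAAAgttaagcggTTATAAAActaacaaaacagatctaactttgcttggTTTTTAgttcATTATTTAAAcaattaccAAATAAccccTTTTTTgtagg
Tlk: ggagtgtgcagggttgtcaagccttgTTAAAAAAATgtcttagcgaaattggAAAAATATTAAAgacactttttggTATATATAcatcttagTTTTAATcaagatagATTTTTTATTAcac
lncRNA:Vinr: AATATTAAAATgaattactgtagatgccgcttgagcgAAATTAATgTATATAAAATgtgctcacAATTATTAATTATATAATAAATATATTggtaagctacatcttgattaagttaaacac
The MSBP window was 71.1% A and T, the lncRNA:Vinr window 76% and the tay window 56.2%. The tay window has no run of 6.

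Each list gives a signal value per peak, the authors' score against a control on a scale not given in the sources used here. Within a list it was used to rank peaks. To set the replicates side by side, each value was set against a typical strong peak of its own list: the median over its strongest peaks, as many as the IDR list holds. This ratio is called relative signal, and comparisons of it between replicates rest on that unstated scale. The IDR list was identical to that upper end of the pooled list. The files hold no read numbers, and sequencing depth is unknown. Intervals given below cover counting error alone. Of the 222 X arm IDR peaks, 216 had a summit within 100 bp in both replicate lists, 144 were among these strongest peaks of both replicates and 4 among those of neither. The 222 summits fell into 212 called intervals. Peaks are not replicates of a condition, and each test below compares parts of the genome within these lists, two-sided throughout.

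Of the 10 X arm peaks of highest signal value, 9 lay in a single Mb around MSBP and nonA, and all 10 were within 500 bp of a start site. The peak of highest signal value, 1399, lay at position 15890253 of X between MSBP, a membrane steroid-binding protein gene, and CG15916, 144 bp from the nearest start site. Its relative signal was 6.76 in replicate 4 and 6.09 in replicate 6. It ranked 131 in the pooled list, so no X arm peak was among the 100 strongest. The same held for the arms 3L and 3R, while 2R had 1 such peak and 2L had 9. A peak between Graf, a GTPase regulator gene, and mRpL3, which encodes a protein of the mitochondrial ribosome, had a signal value of 984 and relative signals of 4.40 and 5.05. nonA, an RNA-binding protein gene needed for vision and courtship song, had 945, with 4.45 and 4.28. The divergent promoter of PIG-Q, for glycolipid anchor synthesis, and of U2af50, a splicing factor, had 874, with 4.26 and 3.82. These 4 promoters were high in both replicates, with values in replicate 6 from slightly below to slightly above those in replicate 4.

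Outside that region, the strongest promoter peak was at ph-p, a Polycomb group gene of the PRC1 complex. Its summit at position 2137314, in an intron 459 bp from a start site, had a signal value of 862 and relative signals of 4.21 in replicate 4 and 3.43 in replicate 6. A further summit in its 5' UTR, 413 bp from a start site, had 542, with 2.05 and 2.95. The neighbouring paralog ph-d had an IDR peak too, 809 bp from its start site, with a signal value of 478 and relative signals of 2.12 and 2.32. The 2 genes are close copies, and reads from shared sequence may be placed at either.

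The same Mb held 12 of the 25 strongest X arm peaks, and 18 of the 25 were at start sites. The other promoters among the 25 belonged to genes with varied cell functions. They were tay (837), ND-20 of respiratory complex I (690), TH1 of the negative elongation factor with the checkpoint kinase gene mei-41 (626), the cyclin gene CycD (606), the nuclear transport genes Ranbp16 (581) and Ran (542), the sugar transporter gene Ugalt (579), lncRNA:CR44619 (473), CBP (449) and the pair CG4239 and CG9992 (448), with signal values in brackets. Among these, Ranbp16 and Ugalt differed between replicates in opposite directions. Ranbp16 had relative signals of 3.22 in replicate 4 and 2.00 in replicate 6, and Ugalt had 2.08 and 3.52. ND-20 and CycD had 3.14 and 3.46, and 2.74 and 3.04.

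Peaks away from start sites reached lower signal values than promoter peaks, up to 581, and 82 of 93 lay within genes, noncoding ones included. The 8 strongest were in introns of CG32772 (581), Tlk (534), Hr4 (435), Dok (422), LPCAT (421) and Tis11 (384), in an exon of lncRNA:Vinr (564) and in intergenic DNA near ph-d (478). Tlk encodes a kinase of chromatin assembly, Hr4 a nuclear receptor of the ecdysone response and Dok an adaptor of tyrosine kinase signalling. Relative signals at CG32772 were 2.74 in replicate 4 and 2.62 in replicate 6. At Tlk they were 2.42 and 2.63, and at Hr4 1.88 and 2.07. All 8 summits had relative signals above 1 in both replicates, so each exceeded a typical strong peak of its list. The distance from the 93 summits of this kind to the nearest start site had a median of 2017 bp and reached 25007 bp.

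Some genes held several such peaks. Raf, the kinase between Ras and the MAP kinase cascade, had 5 IDR summits more than 500 bp from a start site, from position 2296311 to 2304089, with signal values from 136 to 269. Drak, a kinase gene, had 3. The 0.5 Mb from 7.0 Mb onwards held 14 IDR peaks, of which 2 were at start sites. Of these, 7 lay inside CG1677 and away from start sites, in DNA with start sites of the transcription factor gene brk, the autophagy gene Atg5, Dok and unc-119. Their signal values ran from 131 to 422. All 7 also lie in lncRNA:CR44357, a noncoding gene that spans CG1677.

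**Figure D1:**
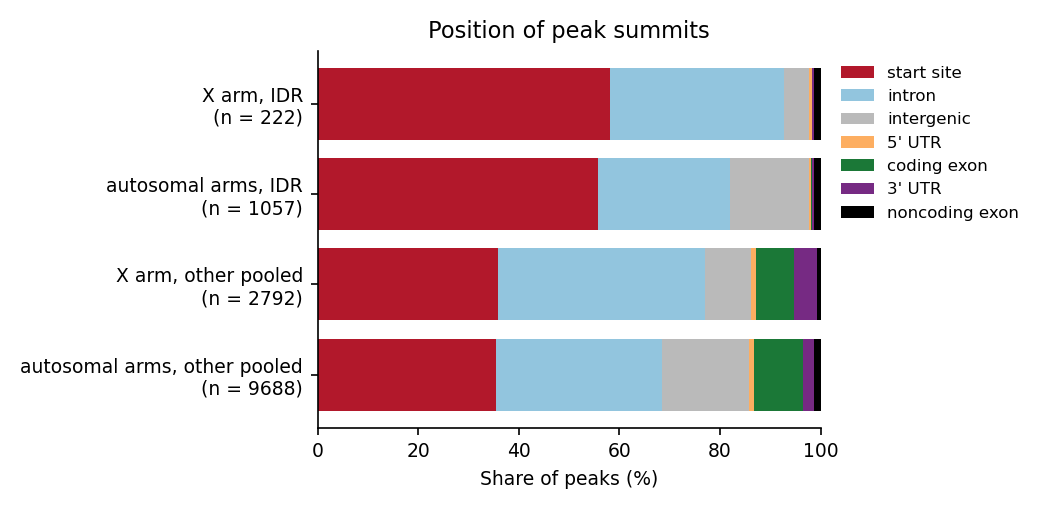
Position of peak summits, as the share of peaks in percent (x axis) for IDR and other pooled peaks of the X arm and of the autosomal arms (bars). Start site means within 500 bp of one, and the other classes hold the remaining summits; intergenic IDR peaks make up 4.95% on X and 15.7% on the autosomal arms.

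The start-site share of X arm IDR peaks did not differ from the autosomal one beyond counting error, while the position of the remaining peaks did. Promoters, taken as 500 bp to either side of a start site, held 129 of 222 X arm IDR summits, 58.1% (Wilson 95% interval 51.5 to 64.4). On the autosomal arms they held 589 of 1057, 55.7% (52.7 to 58.7). The odds ratio was 1.10 (95% interval 0.822 to 1.48; p = 0.552, Fisher's exact test), and its direction turned under several settings. Single autosomal arms ran from 44.7% on 3L to 60.2% on 3R. Of the sequence, 16.9 of 19.5 Mb on X and 69.5 of 82.8 Mb on the autosomal arms lay over 500 bp from start sites. Promoters thus made up a smaller part of X, and the test does not take this into account. Among the weaker pooled peaks the shares were 35.8% and 35.5% (odds ratio 1.01, 95% interval 0.927 to 1.11, Fisher's exact test, p = 0.788). With the 2 Mb next to pericentromeric DNA kept, the autosomal share was 31.4% and the difference passed the threshold (odds ratio 1.22, p = 6.16e-06 by Fisher's exact test). Taken from the strongest peaks of either replicate alone, the X arm share was 57.6% ± 2.29 (SD, n = 2 replicates).

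Away from start sites, intergenic peaks were fewer on X. They were 11 of 93 X arm IDR peaks, 11.8% (Wilson 95% interval 6.73 to 20.0), against 166 of 468 autosomal ones, 35.5% (31.3 to 39.9). The odds ratio was 0.244 (95% interval 0.126 to 0.471; p = 2.50e-06, Fisher's exact test), and it stayed between 0.179 and 0.400 under the 11 alternatives run. This comparison was added after the position classes had been seen. With protein-coding genes alone counted as genes, the contrast was smaller, 20.4% on X against 39.1% (odds ratio 0.400, p = 5.56e-04 by Fisher's exact test). Sequence over 500 bp from start sites was itself less often intergenic on X, 19.5% against 27.9%. Among weaker pooled peaks of this kind the shares were 14.3% and 26.6%. With start-site summits counted as a class of their own, introns held a further 77 of the 222 X arm IDR peaks, 34.7% (28.7 to 41.2), and 26.3% (23.7 to 29) of the autosomal ones. Counted the same way, coding exons held 0 of the 222 and 7.49% of the weaker X arm peaks. A count of 0 of 222 has a Wilson upper limit of 1.70%, and 3 counts would make 1.35%. The 11 intergenic peaks included 2 summits near ph-d, with signal values of 478 and 250, 1 at 5635 bp from Inx2 (257) and 1 at 6082 bp from the head patterning gene oc (209).

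**Figure D2:**
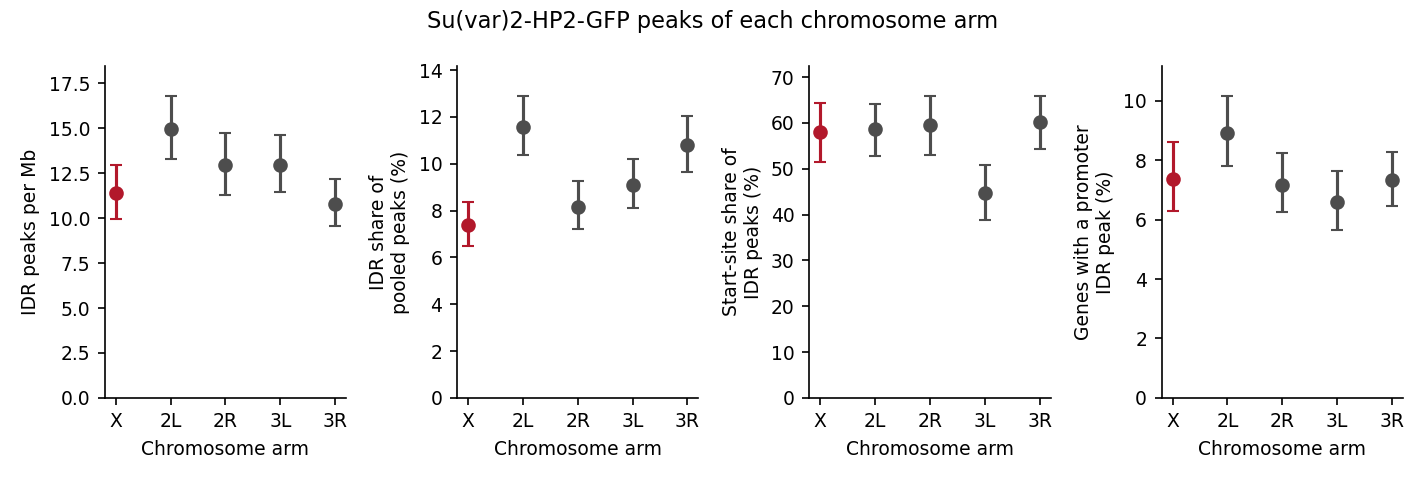
IDR peaks per Mb, share of pooled peaks in the IDR list, share of IDR peaks at start sites and share of protein-coding genes with an IDR peak at a start site (y axes) for each chromosome arm (x axes; X in red). Points are values and bars 95% intervals from counting error (exact Poisson for peaks per Mb, Wilson for shares); the X arm had the lowest IDR share of pooled peaks, 7.37%, and in the other panels lay within the range of the 4 autosomal arms.

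A smaller share of the X arm's called peaks was in the IDR list than on the autosomal arms. Of its 3014 pooled peaks, 7.37% (Wilson 95% interval 6.49 to 8.35) were IDR peaks, against 9.84% (9.29 to 10.4) of those on the autosomal arms with 6.69% over the whole pooled list as background. The odds ratio against the autosomal arms was 0.729 (95% interval 0.627 to 0.847; p = 2.75e-05, Fisher's exact test). Single autosomal arms ran from 8.16% on 2R to 11.6% on 2L. The call was lost without replicate 4, where the strongest peaks of replicate 6's own list took the place of IDR peaks (odds ratio 0.888, p = 0.138 by Fisher's exact test). It was also lost when the 2 Mb next to pericentromeric DNA were kept on the autosomal arms, with X unchanged (odds ratio 0.880, p = 0.0925 by Fisher's exact test).

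The lower IDR share came with a higher density of weak peaks. The X arm had 155 pooled peaks per Mb against 130 on the autosomal arms, a ratio of 1.19 (95% interval 1.14 to 1.24, two-sided exact binomial test, p = 9.06e-17). 2R, with 159 per Mb, was above X, and 3R, with 100, was the lowest. Of the 3014 pooled peaks of the X arm, 1161 had a q-value under 0.05. Among pooled peaks with such a q-value the densities were 59.5 and 55.0 per Mb, a ratio of 1.08 (exact binomial test, p = 0.016). Over the list of replicate 6 alone the ratio was 1.03 (exact binomial test, p = 0.136). For pooled peaks with the 2 Mb next to pericentromeric DNA kept on the autosomal arms, it turned to 0.953 (exact binomial test, p = 0.0168). That setting left X unchanged, and the autosomal density rose to 162 per Mb.

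The density of IDR peaks was 11.4 per Mb on X and 12.8 per Mb on the autosomal arms. The ratio was 0.891 (95% interval 0.768 to 1.03, two-sided exact binomial test, p = 0.126). Single autosomal arms ran from 10.8 on 3R to 14.97 on 2L, a range that holds the X value. Counted without replicate 6, from the strongest peaks of replicate 4's own list, the ratio was 0.767 and passed the threshold (exact binomial test, p = 6.53e-04). It also passed with the 2 Mb next to pericentromeric DNA kept on the autosomal arms alone, at 0.847 (exact binomial test, p = 0.0227). Without 3R it passed at 0.834 (exact binomial test, p = 0.0167). Among these strongest peaks, the X arm held 189 of replicate 4 and 216 of replicate 6, which is 10.1% ± 0.952 (SD, n = 2 replicates).

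The signal values of X arm and autosomal IDR peaks did not differ in rank beyond counting error. The X arm median was 184, with quartiles of 144 and 274, and medians of the autosomal arms ran from 180 on 3R to 209 on 2L. Of the X arm peaks, 108 of 222 were above the median of both parts together, 48.6%, against 50.2% of the autosomal ones (odds ratio 0.938, 95% interval 0.703 to 1.25; p = 0.712, Fisher's exact test). At start sites the median was 190 on X and 211 on the autosomal arms, and away from them it was 178 on both. The X arm had 37 of the 500 strongest pooled peaks, against 34 to 62 on single autosomal arms. IDR peaks are the upper end of the pooled list by signal, so the comparison of their signal values leaves out weaker peaks. Over all pooled peaks the median was 30.263 on X and ran from 30.315 on 2R to 33.733 on 3R.

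Counted by genes, no difference beyond counting error was found. On the X arm, 145 of 1967 protein-coding genes carried a promoter IDR peak, 7.37% (Wilson 95% interval 6.30 to 8.61). On the autosomal arms 777 of 10411 did, 7.46% (6.97 to 7.98), for an odds ratio of 0.987 (95% interval 0.821 to 1.19; p = 0.925, Fisher's exact test). The X arm had the lowest gene density of the 5 arms, 101 protein-coding genes per Mb against 117 to 148. Without the 0.6 Mb in which 32 IDR peaks lay, from position 15844338 to 16391712, the X arm share was 5.83% (odds ratio 0.768, p = 0.0118 by Fisher's exact test). This region was chosen for its peak count and taken from X alone, which lowers the share by construction. When the densest Mb of each of the 5 arms was left out, the shares were 5.67% and 6.74% and did not pass the threshold (odds ratio 0.832, p = 0.0987 by Fisher's exact test).

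**Figure D3:**
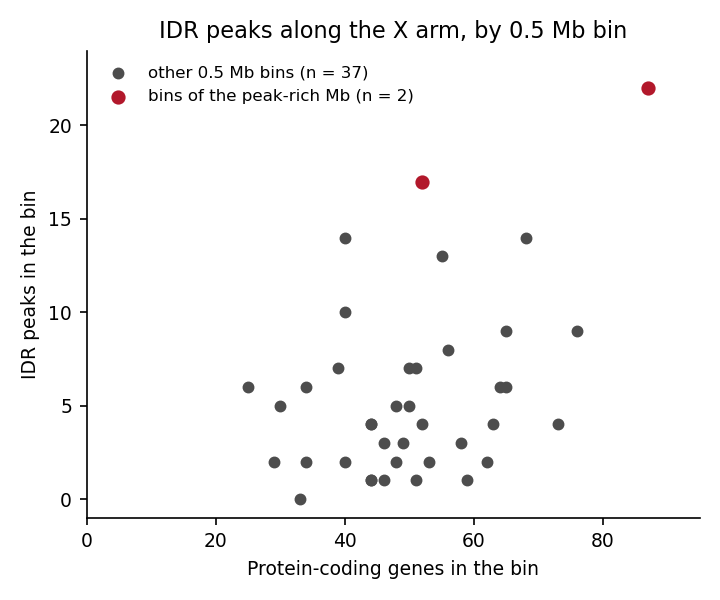
Number of IDR peaks (y axis) against the number of protein-coding genes (x axis) in each of the 39 bins of 0.5 Mb of the X arm. Each point is a bin; the 2 red bins, with 22 and 17 IDR peaks, make up the peak-rich Mb around MSBP and nonA, and the others hold 0 to 14.

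IDR peaks were spread unevenly along the X arm. In 0.5 Mb bins their number had a median of 4 and ran from 0 to 22, and 12 of the 39 bins held 2 or fewer. The peak-rich Mb around MSBP and nonA, with IDR summits from position 15554459 to 16391712, held 39 of the 222 IDR peaks. Of these, 37 were at start sites, 94.9%, against 92 of 183 in the rest of the arm, 50.3%. In this Mb, 42 of 139 protein-coding genes had a promoter IDR peak, 30.2%, against 103 of 1828 elsewhere, 5.63%. The median signal value was 308 there and 171 elsewhere, and it held 18 of the 37 X arm peaks among the 500 strongest of the pooled list. This Mb was chosen for its peak count, so these values are a description. Both replicates showed the concentration, with 35 of 189 strongest peaks of replicate 4 and 35 of 216 of replicate 6 in it.

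Other arms had such a region as well. The densest Mb held 63 IDR peaks on 2L, 32 on 3L, 29 on 2R and 23 on 3R, beside 39 on X. Without its peak-rich Mb the X arm had 9.89 IDR peaks per Mb, a ratio of 0.774 to the whole autosomal arms (95% interval 0.658 to 0.907, two-sided exact binomial test, p = 0.00121). That Mb was chosen for its peak count and taken from X alone, which lowers the ratio by construction. When the densest Mb of each of the 5 arms was left out, the ratio was 0.856 and did not pass the threshold (95% interval 0.726 to 1.00, exact binomial test, p = 0.0589).

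Start-site IDR peaks on X were less often at divergent promoters. Start sites of both strands lay within 500 bp of the summit at 44 of 129 X arm IDR peaks, 34.1% (Wilson 95% interval 26.5 to 42.6), and at 262 of 589 autosomal ones, 44.5% (40.5 to 48.5). The odds ratio was 0.646 (95% interval 0.434 to 0.963; p = 0.0311, Fisher's exact test). The direction held under the 12 alternatives run, but 5 of them did not pass the threshold, among them the IDR peaks above that list's median signal (odds ratio 0.604, p = 0.0912 by Fisher's exact test). Among the weaker start-site peaks the shares were 27.7% and 30.2% (odds ratio 0.886, p = 0.135 by Fisher's exact test). The divergent share of all start sites was not counted, and X had the lowest gene density of the arms compared. Whether the difference goes beyond that of promoters at large was not tested.

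**Figure D4:**
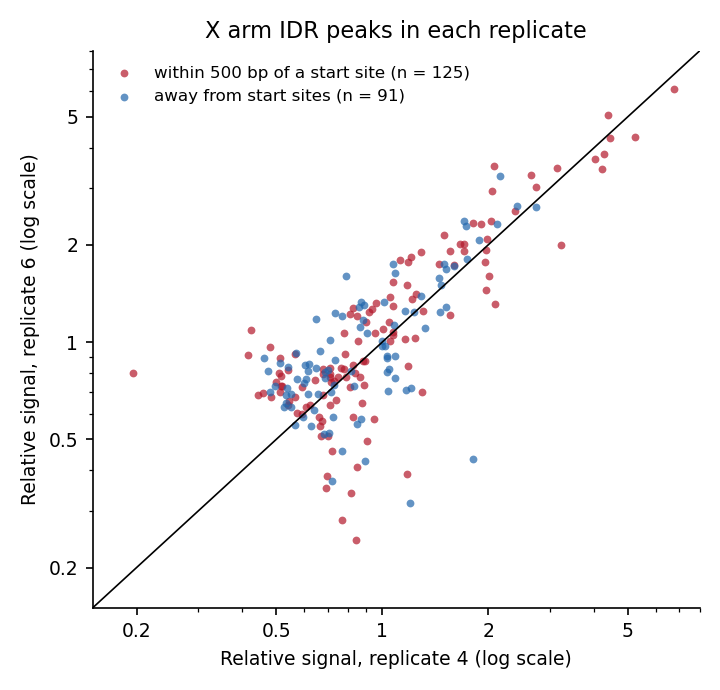
Relative signal of the 216 X arm IDR peaks matched in both replicates, replicate 4 on the x axis and replicate 6 on the y axis, both on log scales, with the line of equal values. Red points are at start sites and blue points away from them; 138 of the 216 peaks lie above the line.

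The 2 replicates differed in the level of X arm peaks relative to autosomal ones. Relative signal was higher in replicate 6 at 138 of 216 matched X arm IDR peaks, 63.9% (Wilson 95% interval 57.3 to 70), and at 487 of 996 autosomal ones, 48.9% (45.8 to 52). The odds ratio was 1.85 (95% interval 1.36 to 2.51; p = 6.59e-05, Fisher's exact test), and single autosomal arms ran from 45.3% to 52.2%. The difference was small in size: the median log2 ratio of replicate 6 to replicate 4 was 0.14 on X and between -0.04 and 0.03 on the autosomal arms. This comparison was added after the values of each replicate had been seen, and with 2 replicates it describes these samples. Its p-value takes peaks as units, and the peaks of a replicate share a library, so it does not measure spread between replicates. The relative signal of the matched X arm peaks had quartiles of 0.666 and 1.23 in replicate 4 and 0.703 and 1.37 in replicate 6. At 13 of the 216 peaks it differed more than 2-fold, 8 of them higher in replicate 4 and 5 higher in replicate 6.

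**Figure D5:**
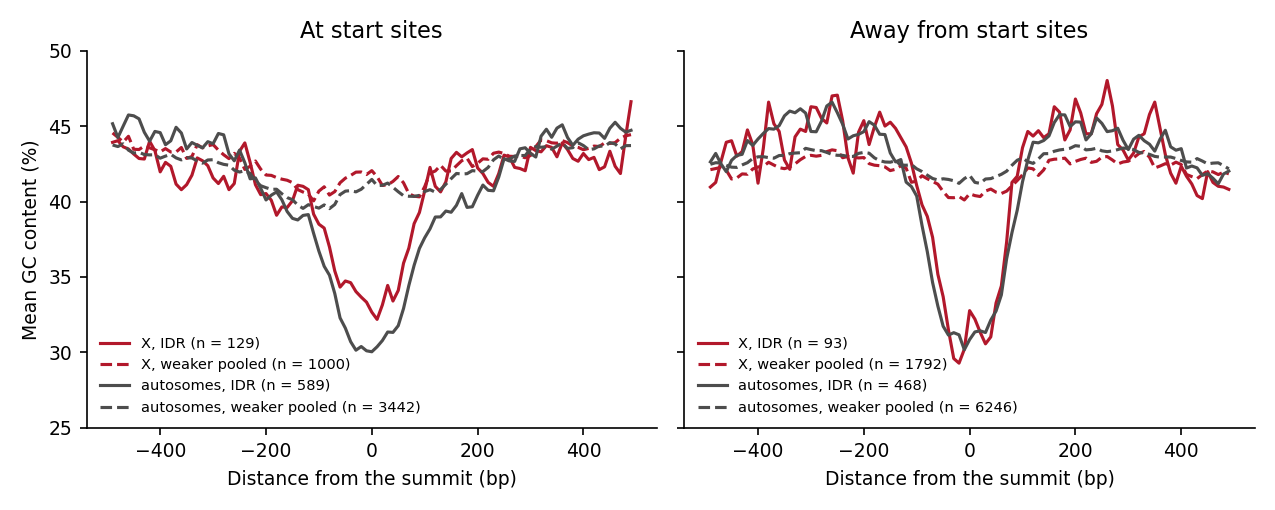
Mean GC content in percent (y axis) by distance from the summit in bp (x axis), for peaks at start sites (left) and away from them (right). Solid lines are IDR peaks and dashed lines weaker pooled peaks, with X in red and autosomal arms in grey; both X and autosomal IDR peaks dip at the summit, on X to 32.2% at start sites and 29.3% away from them, while the weaker peaks stay at 39.5% or above.

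X arm IDR summits lay in AT-rich DNA. Over 201 bp centred on the summit, median GC content was 35.8% at the 129 start-site IDR peaks and 34.3% at the 93 others. It was 40.8% and 39.8% at weaker pooled peaks of the same 2 kinds and 42.3% over all X arm windows of this length. The profile around the summit fell to 32.2% at X arm start-site IDR peaks and to 29.3% at the others. Autosomal start-site IDR peaks were lower still, with a median of 32.3%. Of the X arm start-site IDR peaks, 41 of 129, 31.8% (Wilson 95% interval 24.4 to 40.2), lay below the median GC content of both parts together, against 304 of 589 autosomal ones, 51.6% (47.6 to 55.6). The odds ratio was 0.437 (95% interval 0.292 to 0.654; p = 4.15e-05, Fisher's exact test). It was added after the base composition had been seen, and it kept its call under the 10 alternatives run. All annotated start sites of the X arm had a median of 43.3%, and those of the autosomal arms 41.8%. Runs of 6 or more A or T covered a median of 21.9% of the window at X arm start-site IDR peaks and 24.9% at the others, against 13.4% over all X arm windows. On the autosomal arms the medians were 29.4% at start-site IDR peaks, 25.6% at the others and 13.4% over all windows.

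On both strands, 11 short words were searched in the 100 bp to each side of the summit. Besides those named next, these were the repeats CACACACA and TATATATA, the promoter word GGTCACAC, the early embryonic activator word CAGGTAG, the E-box written CACGTG, and TCAGTT of the initiator. GAGAGAGA, the repeat in MSL entry sites, was at 6 of 222 X arm IDR peaks, 2.70%, and at 13 of 1057 autosomal ones, 1.23% (odds ratio 2.23, 95% interval 0.839 to 5.93, Fisher's exact test, p adjusted over the 11 words by Benjamini-Hochberg = 0.444). All X arm windows of this length held it in 1.69% and X arm start sites in 2.69%. It was in 3.22% of the weaker X arm peaks and 2.32% of the weaker autosomal ones (odds ratio 1.40, adjusted p = 0.0202 by Fisher's exact test), which also differ in their windows at large, 1.69% against 1.12%. TATCGATA, the site of the replication-related factor DREF, was at 14 X arm IDR peaks, 6.31%, and at 3.31% of the autosomal ones (odds ratio 1.97, adjusted p = 0.444 by Fisher's exact test). X arm start sites held it in 7.77% and all X arm windows in 0.628%. It contains CGATA, which was at 29.7% of X arm and 28.0% of autosomal IDR peaks.

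Of the 11 words, a run of 8 A alone passed the threshold in IDR peaks, and it was more frequent over the X arm at large as well. Away from start sites AAAAAAAA was at 25 of 93 X arm IDR peaks, 26.9% (Wilson 95% interval 18.9 to 36.7), and at 61 of 468 autosomal ones, 13.0%. The odds ratio was 2.45 (95% interval 1.44 to 4.17, Fisher's exact test, adjusted p = 0.0159). All windows of the X arm held it in 16.9% and those of the autosomal arms in 9.68%. At weaker pooled peaks it was in 15.9% and 9.56%, an odds ratio of 1.78, which lies within the interval at IDR peaks. At start-site IDR peaks it was at 12.4% on X and 14.9% on the autosomal arms (odds ratio 0.806, adjusted p = 0.731 by Fisher's exact test). TATAAA was at 42.3% of X arm and 41.2% of autosomal IDR peaks, against 19.9% and 21.3% of all windows. Among the weaker pooled peaks 6 of the 11 words were more frequent on X after adjustment, with odds ratios between 1.15 for CGATA and 1.78 for AAAAAAAA, and all 6 were also more frequent over X arm windows at large. CACACACA was in 6.34% of X arm and 4.35% of autosomal windows, TATATATA in 4.48% and 2.72%, and TATCGATA in 0.628% and 0.426%. TATATATA was in 4.01% of the weaker X arm peaks, below its share of X arm windows. A match is only a string of letters in the window, and a missing one says nothing of a factor.

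Gene groups are described by the number of members with a promoter peak, beside the X arm background: 145 of 1967 protein-coding genes, 7.37%, with an IDR peak and 927, 47.1%, with any pooled peak. Genes of protein synthesis often had a weak peak. All 15 X arm genes for cytoplasmic ribosomal proteins had a pooled promoter peak and 3 an IDR peak: RpS10b (178), RpL22 (133) and RpL17 (131), signal values in brackets. RpS10b had relative signals of 0.887 in replicate 4 and 0.736 in replicate 6, RpL22 had 0.766 and 0.281, and RpL17 had 0.764 with no match in replicate 6. Of the 11 mitochondrial ribosomal genes, 7 had a pooled and 2 an IDR peak, mRpL3 (984) and mRpL16 (133). Of 12 respiratory chain genes, 11 had a pooled peak and 2 an IDR peak, ND-20 (690) and ND-ASHI (160). Of 7 translation factor genes 5 had a pooled peak, and eIF5, which shares its promoter with the homeobox gene exd, had an IDR peak of 379. Of 5 proteasome genes 2 had a pooled peak and 0 an IDR peak.

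Of 18 genes of replication, mitosis and the cell cycle, 12 had a pooled and 3 an IDR peak. These were CycD (606), Grip84 of the gamma-tubulin complex (337, shared with car, a gene of vesicle transport) and the kinase gene sgg (234). The next in order was the transcription factor gene Myb (119), just outside the IDR list. Of 14 segmentation and patterning genes, 10 had a pooled peak and sgg alone an IDR peak. Of 4 neural genes 2 had a pooled peak, and elav, for an RNA-binding protein of neurons, had an IDR peak of 362 with relative signals of 1.59 and 1.74. The receptor gene N had a start-site peak of 45.0, and an IDR peak of 321 inside the gene but away from start sites. Of 13 Polycomb, Trithorax and chromatin genes 12 had a pooled peak, and ph-p (862) alone had an IDR peak at a start site, ahead of the acetyltransferase gene nej (101), e(y)2 (84.6) and ph-d (64.1). Of 13 genes listed as chorion, yolk or female-sterile genes, 2 had a pooled peak. These were the yolk gene Yp3 (20.7) and fs(1)K10, whose IDR peak of 148 was the only one. fs(1)K10 encodes neither a chorion nor a yolk protein.

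Several groups had no promoter peak. Of 21 chemoreceptor genes 0 had a pooled promoter peak, where 3 counts would give a share of 14.3%. The 4 cuticle genes and the 2 Mediator genes had none either, too few for a limit on the share. Of 23 genes of classic visible markers, 11 had a pooled and 1, car, an IDR peak. These included w, with 31.4, and rg, with 58.2. Of 2 heat shock and chaperone genes, Hsc70-3 had a pooled peak of 48.8.

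Genes of X dose and dosage compensation had 0 IDR peaks at start sites, but with 3 and 6 genes against a background of 7.37% these counts are too small to limit the share. Of the 3 genes of dosage compensation 1 had a pooled peak, roX2, and of the 6 X dose and sex determination genes 4 had a pooled peak. Sxl, the switch gene of sex determination, had 88.9, with relative signals of 0.407 in replicate 4 and 0.524 in replicate 6. The splicing gene snf had 51.4, the X dose signal gene sisA 32.7 and upd2 26.0. The nearest pooled summit to roX1, at position 3868640, lay 5943 bp from the gene at yin, a peptide transporter gene. Its signal value was 120 and its rank 2020, just outside the IDR list. For roX2 the nearest summit lay 101 bp from the gene with a signal value of 26.8, rank 19119, and had no match in either replicate. The list of heterochromatin proteins held 3 X arm genes, of which HP1b had a pooled peak of 48.2 and Hmr none. The third, dhd, encodes a thioredoxin of the egg and not a heterochromatin protein, and had 21.9.

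The limit of the IDR list passed between similar X arm peaks. The 3 weakest inside it were in an intron of the Myc antagonist gene Mnt (123), at the myosin light chain gene sqh (122) and at dmrt11E (122). The 3 strongest outside it were at goe (121), at yin and CG2930 (120) and at the pair nmdyn-D6 and mRpS25 (120).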

How the data were processed

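ChIP-seq peak lists of Su(var)2-HP2-GFP in 2 biological replicates were used. According to the deposited file listing, a control alignment went into every call: with 1 replicate's alignment for each replicate list, and with both for the pooled list. The IDR list was derived from those 3 lists. Positions are in dm6, per the labels. For the aligner and the caller, the sources used here name no tool. The signal value is a score the authors deposited per peak, on an unstated scale. The authors' −log10 q-value stands at its maximum of 3.98 in every IDR peak and ranks none of them. Lists stop at 30000 peaks, and 12389 pooled peaks had a q-value under 0.05. Columns of no known sample numbered 0.

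Summits were placed on genes of Ensembl release 115 (BDGP annotation 6.54), leaving out transposable elements. Sequence came from RefSeq's dm6 assembly. Pericentromeric parts were set, as approximations, beyond 22 Mb of 2L and 23 Mb of 3L and before 5.4 Mb of 2R and 4.2 Mb of 3R. Counts per Mb were compared by exact conditional binomial tests and shares by Fisher's exact tests (two-sided, threshold 0.05), in Python 3.11.15 with NumPy 2.4.6, pandas 2.3.3 and SciPy 1.17.1. A permutation of 1 arm against 4 cannot go below p = 0.2 and was not used. Tests were checked on simulated data. Replicates were matched by summits within 100 bp. From 155 gene symbols entered, 9 were matched through synonyms and 7 were not matched.

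Named genes are those nearest the 25 strongest X arm IDR peaks, the 8 strongest away from start sites, up to 4 members of each list, roX1 and roX2, and the 3 peaks on each side of the IDR limit. Other genes named, at intergenic peaks and in genes with several peaks, were chosen after their values were seen. Members and lists were chosen with earlier results of these data known. The alternatives were IDR peaks above that list's median signal, IDR peaks strong in both replicates, either replicate omitted, q-values under 0.05, intervals counted once, distances of 250 and 1000 bp, other borders, each arm left out and the X arm without the 0.6 Mb promoter cluster. With a replicate omitted, the other replicate's list stood in for the pooled list, and its strongest peaks for the IDR list. Further alternatives, and the comparisons of intergenic share, GC content and replicate ratio, were chosen after seeing the data.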

Additional observations from a re-analysis of the deposited data

How the results depend on the processing

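The intergenic share, the GC content and the replicate ratio kept direction and call under the 11, 10 and 6 alternatives run. Those 6 for the replicate ratio all use the same 2 replicates. The odds ratio of the start-site share of IDR peaks turned to 0.853 with IDR peaks above the median signal, 0.925 with peaks strong in both replicates, 0.905 at 250 bp, 0.947 without 3L and 0.846 without the 0.6 Mb promoter cluster of X. It ran from 0.853 to 1.16 with a replicate left out. For weaker peaks it was 0.987 at a q-value under 0.05, 0.995 at 1000 bp, 0.991 without 2L, 0.947 without 3L and, past the threshold, 1.22 without the 2 Mb margin, and 0.999 to 1.07 with a replicate left out. The share of genes turned to 1.01 at 1000 bp and 1.05 without 2L, and fell to 0.768 without the promoter cluster, removed from X alone. With the densest Mb of every arm left out it was 0.832 and did not pass the threshold. The signal comparison was 1.00 without 2L.

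The IDR density ratio passed the threshold at 0.847 without the margin and 0.834 without 3R. It also passed at 0.787 without the promoter cluster of X and 0.774 without its whole peak-rich Mb. These 2 settings took a region chosen for its peak count from X alone, which lowers the ratio by construction. With the densest Mb of every arm left out the density ratio was 0.856 and did not pass. It ran from 0.767 to 0.926 with a replicate left out. The pooled density ratio turned to 0.953 without the margin. It was 1.08 at a q-value under 0.05 and 1.03 to 1.11 with a replicate left out. The IDR share gave 0.880 without the margin and 0.669 to 0.888 with a replicate left out. The divergent share missed the threshold at 0.604 with IDR peaks above the median signal, 0.634 with peaks strong in both replicates, 0.723 at 1000 bp, 0.678 without 2R and 0.662 without 3R. The causes were not tested. No paired analysis was possible because all samples belong to 1 group. Depth is unknown.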

Other observations

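A word that no list held stood out at promoter IDR peaks of the X arm. Among 13759 words of 8 letters, ranked by frequency at X arm start-site IDR peaks against weaker ones, GTGGAAAC came first. It was picked after its values were seen, so it is a description with no test. It was within 100 bp of the summit at 10 of 129 X arm start-site IDR peaks, 7.75%, and at 6 of 1000 weaker ones, 0.6%. On the autosomal arms it was at 1.19% of such IDR peaks and 1.07% of weaker ones. All X arm start sites held it in 1.07% and all X arm windows of that length in 0.674%. The peaks lay at promoters in several places on the arm. Those at Graf/mRpL3, CG8924/Stim, Rrp47 and Slc25A46a were in the peak-rich Mb around MSBP and nonA. Sites of 30 bases are shown at 5 of the 10 peaks, in dm6 from the RefSeq assembly, with the word in capitals. They lie in chrX:15761144-15761173 (minus strand), chrX:15940623-15940652 (minus), chrX:11137742-11137771 (plus), chrX:15983724-15983753 (plus) and chrX:14247559-14247588 (plus).
Graf/mRpL3: taattggagtaGTGGAAACatgatgtgatt
CG8924/Stim: tgccctaaaaaGTGGAAACagtgtattaac
CDK2AP1: ttgcttgtacaGTGGAAACacccacattcg
Slc25A46a: gatgtgacgctGTGGAAACgcaccgaaagc
mud: aatatgccatgGTGGAAACacaagccactt
The signal values of these peaks were 424, 421, 302, 260 and 212. Relative signals at CDK2AP1 were 1.18 in replicate 4 and 1.77 in replicate 6, and at Slc25A46a 1.17 and 0.390.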
